A study of Homo sapiens with 2 samples.

Results

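RUNX1 peaks at the ends of protein-coding genes were 996 of the 13591 peaks called by ChIPseq in MCF10A cells, or 7.33% (95% Wilson interval 6.90 to 7.78). A peak was counted when its summit, the position with most tags, was no more than 1 kb away from the start or the end of such a gene in the RefSeq gene table for GRCh38. Ends of 1045 of 20033 protein-coding genes were reached in this way, or 5.22% of them (4.92 to 5.53).

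MCF10A is an established, non-tumourigenic line of human mammary epithelial cells. The cells of both libraries carried a deletion of RUNX1 and had been transduced with lentiviruses from which RUNX1 could be induced, and both had received doxycycline at 1 µg/ml for 24 h. The peaks therefore describe RUNX1 made from an integrated vector, and the cell line's identity could not be checked from a list of peaks. There was 1 library made with an anti-RUNX1 antibody, with 80338845 tags kept of 89501295, and 1 input library made without antibody, with 87410774 kept of 94686274. There were no replicates, so the values below carry no test, and the intervals cover counting error in these libraries only.

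RUNX1 is the DNA-binding partner of CBFB, and the pair recognises short sequences such as TGTGGT through the runt domain of RUNX1. RUNX factors work at enhancers far from genes as well as at promoters, and in breast epithelium RUNX1 is known for its place in the balance of the cell lineages. Many human genes stand head to head with a neighbour, so that a single stretch of DNA serves as the promoter of both.

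Sequence at the summits is shown here because the letters read by RUNX proteins stood close to many of them. The stretches come from the RefSeq promoter table (GRCh38.p14), reach at most 50 bases to either side of a summit, and were limited to bases upstream of the outermost gene start and in no protein-coding gene. They are written 5′ to 3′ on the strand of the gene, and capitals mark TGTGGT or TGCGGT on either strand, so that the same letters read on the opposite strand appear as ACCACA or ACCGCA. Of 147 such stretches, counted once for each gene and with chromosomes 8 and 18 left out, 66 held the letters, or 44.9%. Genes that share a promoter count the same stretch more than once. The share was not computed for stretches of this length away from summits, so 44.9% cannot be read as high or low. The stretches printed were chosen after their values were seen, the first 11 as tall peaks or peaks of regulatory genes that hold the letters.
SNAPC3, chr9:15422626-15422686, plus strand: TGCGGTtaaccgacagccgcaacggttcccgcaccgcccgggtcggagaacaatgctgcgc
MFF, chr2:227325064-227325164, plus strand: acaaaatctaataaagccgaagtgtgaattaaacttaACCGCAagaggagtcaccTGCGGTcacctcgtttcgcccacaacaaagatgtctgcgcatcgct
SIKE1, chr1:114780836-114780935, minus strand: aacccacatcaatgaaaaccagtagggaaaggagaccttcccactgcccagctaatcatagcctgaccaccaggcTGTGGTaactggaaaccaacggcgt
CSF2, chr5:132073711-132073788, plus strand: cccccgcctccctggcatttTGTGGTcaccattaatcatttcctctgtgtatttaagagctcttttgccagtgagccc
LOC105375012, chr6:30463715-30463815, minus strand: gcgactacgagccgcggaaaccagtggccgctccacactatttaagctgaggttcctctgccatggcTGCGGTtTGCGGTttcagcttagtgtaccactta
IL6R, chr1:154405218-154405318, plus strand: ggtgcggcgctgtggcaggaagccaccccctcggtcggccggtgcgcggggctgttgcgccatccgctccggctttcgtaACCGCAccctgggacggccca
MPLKIP, chr7:40134623-40134716, minus strand: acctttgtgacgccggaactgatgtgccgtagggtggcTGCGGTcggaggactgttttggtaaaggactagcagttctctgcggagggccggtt
CD55, chr1:207321497-207321597, plus strand: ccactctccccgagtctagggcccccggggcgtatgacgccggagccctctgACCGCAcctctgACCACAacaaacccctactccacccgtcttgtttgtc
PI4KA, chr22:20858833-20858933, minus strand: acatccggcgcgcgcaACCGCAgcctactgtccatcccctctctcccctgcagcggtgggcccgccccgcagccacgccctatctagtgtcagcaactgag
IL23A, chr12:56338687-56338787, plus strand: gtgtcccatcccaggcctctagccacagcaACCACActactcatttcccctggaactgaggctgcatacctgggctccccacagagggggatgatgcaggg
LATS2, chr13:21061699-21061799, minus strand: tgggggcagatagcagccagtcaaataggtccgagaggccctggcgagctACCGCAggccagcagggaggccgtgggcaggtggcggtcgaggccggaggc

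The MFF stretch held a match on each strand, centred 10 bases before the summit and 8 bases after it, and LOC105375012 held a pair of matches in tandem. In CSF2, the gene of the growth factor GM-CSF and a promoter at which RUNX1 has long been studied, the match lay 27 bases before the summit. In LATS2, a kinase of the Hippo pathway, it lay 3 bases after the summit. The next 5 stretches lay under peaks of 21 tags or more and held neither form of the letters.
EEF1A1, chr6:73521033-73521133, minus strand: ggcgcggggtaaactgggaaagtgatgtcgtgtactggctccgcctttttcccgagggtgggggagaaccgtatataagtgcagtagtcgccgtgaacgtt
NOTCH2NLC, chr1:149390425-149390525, plus strand: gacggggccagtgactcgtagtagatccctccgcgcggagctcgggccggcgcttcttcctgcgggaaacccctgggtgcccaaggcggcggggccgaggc
NOTCH2, chr1:120069728-120069828, minus strand: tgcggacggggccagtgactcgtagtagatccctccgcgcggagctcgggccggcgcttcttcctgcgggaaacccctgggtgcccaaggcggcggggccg
OSMR, chr5:38845837-38845937, plus strand: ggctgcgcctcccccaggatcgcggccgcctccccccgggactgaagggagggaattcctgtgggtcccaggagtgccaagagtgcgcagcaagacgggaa
NUF2, chr1:163321831-163321931, plus strand: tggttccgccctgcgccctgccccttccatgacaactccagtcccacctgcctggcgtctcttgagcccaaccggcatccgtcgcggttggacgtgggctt

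The stretches of NOTCH2 and NOTCH2NLC shared a run of 97 identical bases. NOTCH2NLC is one of the human copies of the first part of NOTCH2, and peaks of 21 tags at NOTCH2, 20 at NOTCH2NLA and 30 at NOTCH2NLC stood 116, 77 and 146 bp upstream of their starts. Tags that fall in the shared run cannot be assigned to 1 copy with certainty, so these 3 peaks are uncertain. The stretch of NOTCH2NLA, not printed above, held TGCGGT 27 bases after its summit. It began with the bases that end the NOTCH2NLC stretch and ran on toward the gene start. The absence of the letters at NOTCH2 and NOTCH2NLC therefore holds only for the bases printed.

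Peak summits gathered at gene starts. The direction of transcription was known for 15842 genes. Of the 790 peaks nearest an end of such a gene, 630 stood at a start and 160 at the other end, so that 79.7% (76.8 to 82.4) were nearest a start. For 206 peaks the direction of the nearest gene was not known. A summit lay within 1 kb of the start of 654 genes, or 4.13% (3.83 to 4.45), and within 1 kb of the other end of 199, or 1.26% (1.09 to 1.44). Both ends were reached in 20 genes, in 12 of them by the same summit alone.

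Around starts, the 250 bp just upstream held 186 summits and the 250 bp just inside held 109. Bins of the same size from 2 to 5 kb away held 16 to 38 summits, with a median of 21.5. Around the other ends, bins within 1 kb held 18 to 27 summits, within the 14 to 35 seen from 2 to 5 kb away. The 630 start peaks lay a median of 294 bp from the start. Of these, 344 stood upstream, 294 lay within 250 bp of the start and 97 lay beyond 750 bp. The 160 peaks at other ends lay a median of 518 bp away, with 35 within 250 bp and 44 beyond 750 bp, and 85 stood past the end of the gene. The windows within 1 kb of all gene ends took up 72.8 Mb, or 2.70% of the genome size of 2.7 Gb used by the peak caller, and held 13.7 peaks per Mb against 4.79 per Mb elsewhere.

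**Figure D1:**
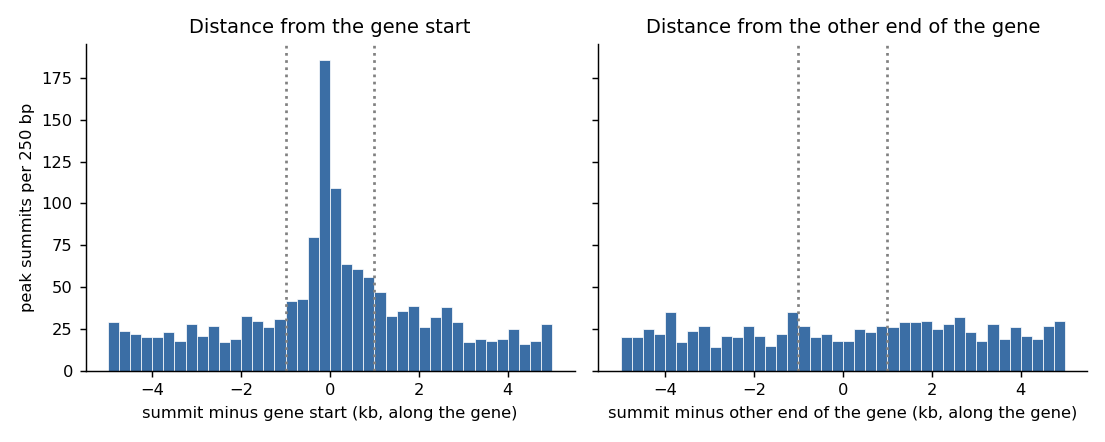
Peak summits in each 250-bp bin (y axis, number of summits) by their distance in kb, counted along the gene, from the gene start (left) and from the other end (right). Dotted lines mark 1 kb on either side. The bars rise to 186 just upstream of starts, while no bin around the other ends held more than 35.

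The peaks at gene ends were about as tall and as long as the rest of the list. The pileup is the number of ChIP tags, each extended to 74 bp, that cover the summit. Its median at gene ends was 17 tags, with quartiles of 15 and 22 and a range of 10 to 77, against 18 tags, 15 and 23 and a maximum of 148 for the other 12595 peaks. The median length was 146 bp (interval of the median 138 to 152) at gene ends and 154 bp (152 to 156) elsewhere. Fold enrichment is the pileup over the local level set by the input and the genome background, with a tag added to each. Its median was 5.00 at gene ends and 5.06 elsewhere. A fold enrichment of at least 5 was reached by 478 of the 996 peaks, or 48.0% (44.9 to 51.1), against 50.6% of the whole list.

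The share of tall peaks was slightly lower at gene ends. A pileup of at least 30 tags was reached by 77 peaks, or 7.73% (6.23 to 9.56), against 10.1% (9.54 to 10.6) of the other peaks. Of the 100 tallest peaks of the whole list, 7 stood at a gene end, or 7% (3.43 to 13.7), and of the 500 tallest, 29, or 5.8% (4.07 to 8.21), and both intervals hold the 7.33% of all peaks. At starts, 6.03% (4.43 to 8.17) of the peaks reached 30 tags, and at other ends 10.6% (6.74 to 16.4), intervals that overlap. The local level was at the genome background of 2.20 tags, within 5%, at 493 peaks, or 49.5% (46.4 to 52.6), against 43.2% (42.3 to 44.1) of the other peaks. It exceeded 3 times that background at 5 gene-end peaks.

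RUNX1 itself carried the third tallest of these peaks. Its summit lay 423 bp inside the outermost start of the gene, with a pileup of 69 tags (95% Poisson interval 53.7 to 87.3), a length of 122 bp and a fold enrichment of 21.9, the highest at any gene end. A second peak of 44 tags and 298 bp stood 79 bp inside the start. The local level was 1.00 times the genome background at the first and 1.25 times at the second. Since the cells carried an added RUNX1 gene, its part in these peaks cannot be told apart from that of the gene in its own place.

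The tallest peak of all, with 77 tags (60.8 to 96.2) over 625 bp, stood 65 bp inside an end of GH1, the gene of growth hormone. GH1 has near-identical neighbours in its cluster, so the place of this peak is uncertain. The next, with 70 tags and a fold enrichment of 18.9, stood 114 bp beyond an end of ITGB2, the beta chain of the leukocyte integrins. The directions of both genes are not known here.

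GPAM, which starts the synthesis of glycerolipids, had 63 tags over 420 bp, with the summit 104 bp upstream of its start. EEF1A1, the elongation factor that brings aminoacyl-tRNA to the ribosome, had 61 tags with the summit 51 bp upstream. STING1, an adaptor of innate immune signalling, also had 61 tags, over 495 bp. The intervals of these 6 tallest peaks overlapped, so their order is not fixed by the counts.

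TFAP2A, a transcription factor of epithelial cells, had 54 tags at a summit 545 bp inside its start. The small GTPase ARF3 had 48 tags, 625 bp from its start, and the kinase DSTYK had 46 tags at a summit 2 bp from its start. RAB3GAP1, part of an exchange complex for RAB18, had 45 tags at 310 bp from its start. SNAPC3, a subunit of the complex that drives snRNA genes, had 44 tags at 240 bp upstream of its start. CYP51A1, an enzyme of cholesterol synthesis, likewise had 44 tags, at 962 bp from its start. These 6 peaks all stood on the start side of their gene, at distances that covered nearly the whole 1 kb allowed.

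Tall peaks at the other end were those of LOC124902420 with 59 tags, the collagen gene COL23A1 with 43 at 35 bp from the end, TBL2 with 41 and DCAF4 with 41. RASAL2, a RAS GTPase-activating protein, had 42 tags 302 bp from its start. C3orf18 had 40 tags 67 bp from its start, and S100A12 had 39 tags 18 bp from its start. The complement gene C3 had 41 tags and SHISA8 had 39, with the gene direction not known for either.

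In a pair of the 25 tallest peaks the input was high too. RHOU had 41 tags but a fold enrichment of 2.84, at a local level 6.26 times the genome background. NBPF1, a gene with many near-identical copies, had 40 tags and a fold enrichment of 3.69, at 4.59 times. The other 23 peaks had fold enrichments from 8.56 to 21.9.

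**Figure D2:**
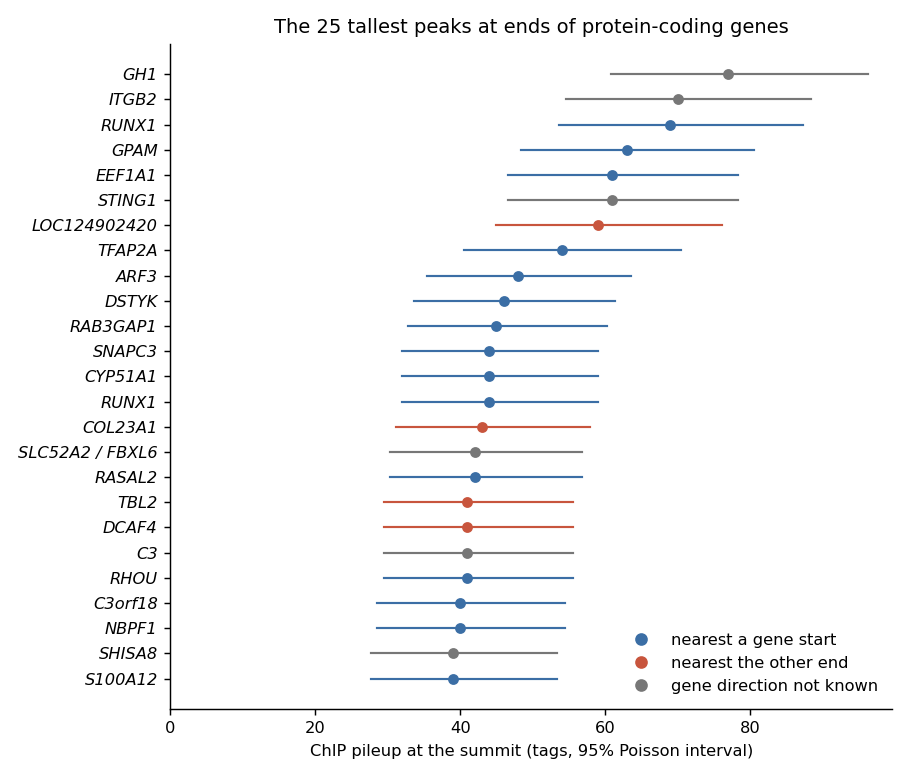
ChIP pileup in tags at the summits of the 25 tallest peaks at gene ends (points), with exact 95% Poisson intervals (lines), coloured by the gene end nearest the summit. Pileups run from 39 to 77 tags, and neighbouring intervals overlap throughout.

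The longest peak reached 2126 bp and lay at the other end of LOC124902420, in a part of chromosome 10 known for duplicated sequence. It was followed by the peak of C3 with 850 bp, that of GH1 with 625 bp, that of the autophagy protease ATG4B with 605 bp and 32 tags, and a peak of 589 bp near the other ends of SRRM2 and ELOB. A length of at least 300 bp was reached by 82 gene-end peaks, or 8.23% (6.68 to 10.1), and by 8.87% (8.38 to 9.38) of the other peaks. Nearest the limit of 1 kb, the last peaks inside were those of NUDT17 at 1000 bp with 19 tags, PINK1 at 997 bp with 15 and TRIOBP at 996 bp with 14. The first ones outside were those of LOC124902201 at 1003 bp with 38 tags, OXTR at 1004 bp with 13 and ABLIM3 at 1007 bp with 31.

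The RUNX letters were more frequent in promoter windows that hold these summits than in promoters at large. The promoter table holds 300 bases for a start, 250 before it and 50 after it, and 240 of the 996 summits fell in such a window. TGTGGT or TGCGGT, on either strand, occurred in 153 of these 240 windows, or 63.8% (57.5 to 69.6), against 19.0% of all 22077 windows of protein-coding genes. TGTGGT alone occurred in 32.1% against 11.3%. The longer form TGTGGTT or TGCGGTT, which is part of the same matches, occurred in 37.5% against 5.56%. Windows of peaks with at least 20 tags held the letters in 43 of 60 cases, or 71.7% (59.2 to 81.5), and those of lower peaks in 110 of 180, or 61.1% (53.8 to 67.9).

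The matches lay close to the summits, and 116 of the 240 windows held a match within 50 bp of the summit. Within 25 bp there were 6.88 matches per kb (5.44 to 8.59), from 25 to 50 bp there were 5.65 (4.31 to 7.27), and from 50 to 100 bp there were 2.29 (1.65 to 3.09). Beyond 150 bp in the same windows the rate was 0.924 per kb, and its interval held the 0.715 per kb of all windows. A match is a description of letters and does not show that RUNX1 touched them.

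Other promoter sequences differed less. The ETS letters CCGGAA were in 28.3% of the 240 windows and 21.1% of all, and the GC box GGGCGG was in 65.4% and 56.3%. Within 50 bp of the summits the ETS letters had 1.83 matches per kb (1.32 to 2.49). Farther away in the same windows they had 1.11, and in all windows 0.947. The GC box had 4.02 per kb within 50 bp (3.24 to 4.95) and 4.65 farther away. The CCAAT box was in 60 of the 240 windows, a smaller share than the 34.7% of all windows, and the TATA box TATAAA in 5.83% against 9.50%. The AP-1 letters TGANTCA, with 7.92% against 6.16%, and the CRE core TGACGT, with 8.33% against 8.92%, were rare in both. The motifs were searched on both strands, and none of these other letter groups contains the RUNX letters.

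**Figure D3:**
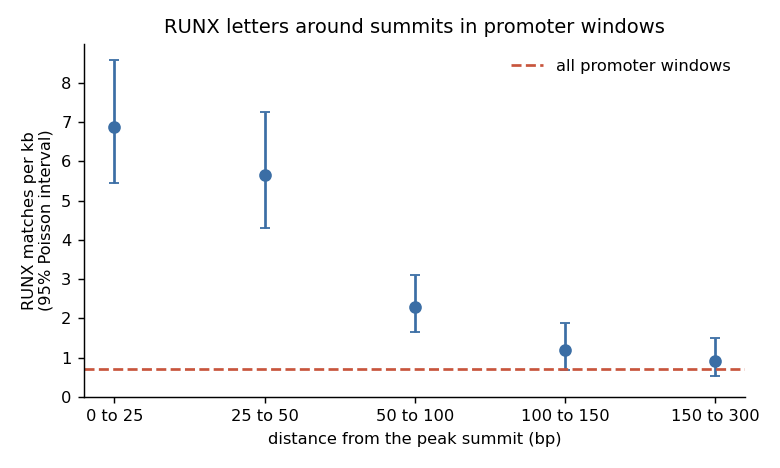
Matches to TGTGGT or TGCGGT per kb (y axis, points with exact 95% Poisson intervals) by distance in bp from the peak summit (x axis), in the 240 promoter windows that hold a summit. The rate falls from 6.88 per kb within 25 bp to 0.924 beyond 150 bp, near the dashed line for all promoter windows at 0.715.

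Ends of more than 1 protein-coding gene lay within 1 kb of the summit at 107 peaks, or 10.7% of the 996 (8.97 to 12.8). There were 102 peaks with 2 genes, 4 with 3 genes and 1 with 22. The kind of each peak was set by the 2 genes nearest the summit. Peaks near the starts of genes on opposite strands were the most frequent kind, with 53, of which 14 had the summit between the starts and 12 had overlapping genes. Their median pileup was 16 tags, with a range of 11 to 34, and the starts of a pair stood a median of 239 bp apart. A further 14 peaks lay near the other end of 1 gene and the start of another, 9 near other ends on opposite strands, 5 at starts and 1 at other ends on the same strand, and 25 at genes whose orientation is not known.

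Counted from the genes, 48 of 1097 pairs with starts on opposite strands within 1 kb of each other had a summit within 1 kb of both, or 4.38% (3.32 to 5.75). For pairs of other ends on opposite strands the figure was 8 of 638, or 1.25% (0.637 to 2.45). For pairs of an other end and a start it was 13 of 556, or 2.34% (1.37 to 3.96). The first of these shares is close to the 4.13% of single genes with a summit at their start.

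Among pairs of starts on opposite strands, the tallest peak stood by the starts of ANAPC13, a subunit of the anaphase-promoting complex, and CEP63, a centrosome protein, with 34 tags over 480 bp. SLC4A2, an anion exchanger, and the kinase gene CDK5 shared a peak of 29 tags and another of 18, and their starts lie 303 bp apart. NUF2, a kinetochore protein, and RGS5, a regulator of G-protein signalling, shared a peak of 28 tags between starts 219 bp apart. Both members of each of these pairs are thus counted from the same tags, and which gene a peak belongs to cannot be told apart.

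TUBG1, the gamma-tubulin of the centrosome, and RETREG3 shared 28 tags at a local level of 2.09 times the genome background. MVB12A and BST2, whose product tethers budding viruses, shared 26 tags, as did RHBDF1 and the DNA glycosylase gene MPG. LACC1 and CCDC122 had 26 tags as well, again at 2.09 times background. SCNM1 and LYSMD1 had 25 tags at 3.34 times background and a fold enrichment of 3.11. The input was thus above background at 3 of these 5 pairs by more than a factor of 2.

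The remaining pairs among the 15 tallest had other arrangements. SLC52A2 and FBXL6 shared 42 tags, the tallest pair peak, with directions not known, and PLEC, the cytoskeletal linker plectin, shared 30 tags with PARP10. RIN1 and BRMS1 had 35 tags at a summit 67 bp from the start of RIN1 and 632 bp from the other end of BRMS1. LIMS2 and MYO7B had 34 tags at a summit 15 bp from the other end of LIMS2. MPEG1 and DTX4 shared 29 tags, as did SRRM2 and ELOB. ERAP1, which trims peptides for antigen presentation, shared 27 tags with LOC124901030 and LNPEP, an aminopeptidase gene. The kind of this peak, starts on the same strand, was set by ERAP1 and LOC124901030 alone.

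**Figure D4:**
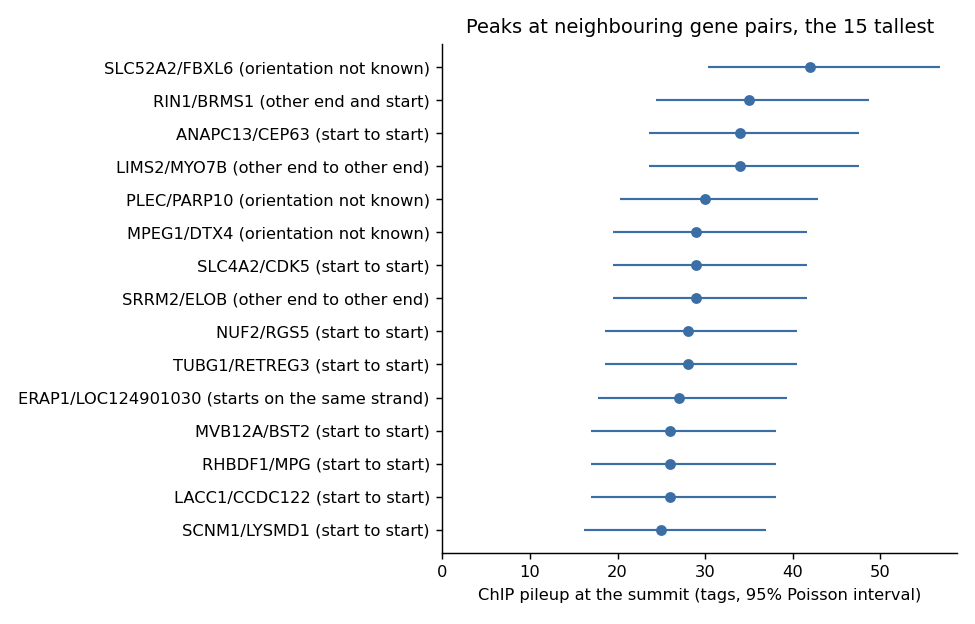
ChIP pileup in tags (points) with exact 95% Poisson intervals (lines) at the 15 tallest peaks with ends of more than 1 protein-coding gene within 1 kb of the summit. Each line names the pair and the kind of gene ends near the summit. Pileups run from 25 to 42 tags, and all the intervals overlap.

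Several genes carried more than 1 peak. At least 2 gene-end peaks were found at 75 genes and 3 at 7 genes. ST3GAL1, a sialyltransferase, had peaks of 34, 20 and 14 tags, and 2 of these lay near the same end. TRIOBP, an actin-bundling protein, had peaks of 32, 27 and 14 tags, which all stood at its other end within 857 bp. FKBP5, a co-chaperone of steroid receptors, had peaks of 22, 14 and 12 tags around its start.

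The lactate transporter gene SLC16A3 also had peaks of 22, 14 and 12 tags, 2 at the start and 1 at the other end. LOC124904075 had 22, 17 and 13 tags, RAPH1 had 17, 15 and 15 at its start, and BEND3 had 16, 16 and 13 at its other end. After RUNX1 itself, FBXL6 had peaks of 42 and 17 tags, and PCDH1 had peaks of 34 and 27. Neighbouring summits are not independent, since 119 of the 996 peaks lay within 1 kb of another gene-end peak.

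Gene families were read against the 5.22% of all protein-coding genes. Of 35 families, 29 had a 95% Wilson interval that held this share. It lay below the interval for 4 families and above it for 2, and none of these was tested. The first 4 were the RUNX genes with their partners, the S100 proteins, the integrins, and the cadherins with protocadherins.

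Of the 13 RUNX, CBFB and TLE genes, 3 had a peak, or 23.1% (8.18 to 50.3). Beside RUNX1, CBFB had 22 tags over 79 bp, 611 bp inside an end, and RUNX2 had 20 tags over 86 bp, 157 bp upstream of its start. The peaks of CBFB and RUNX2 both had the local level at the genome background. RUNX3 and the TLE corepressor genes had no peak at an end. Without RUNX1, of which the cells carried an added gene, 2 of 12 genes were reached, or 16.7% (4.70 to 44.8), an interval that holds the share of all genes.

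Of 44 genes of the Notch pathway, in which ligands on a neighbouring cell release the receptor's inner part to the nucleus, 5 had a peak, or 11.4% (4.95 to 24.0). The ligand gene JAG1 had 17 tags, 467 bp from its other end, and the receptor gene NOTCH2 had the 21 tags described above. PSEN2, a catalytic subunit of the protease that cuts the receptor, had 20 tags at 208 bp inside its start. DTX4, a ubiquitin ligase of the Deltex group, had 29 tags near its other end, and HES7, a target gene and repressor, had 14 tags at 864 bp inside its start. The interval of this share holds the share of all genes.

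Among 12 AP-1 factors, ATF3 had a peak of 17 tags at each end and FOSL1 had 1 of 11 tags. Among 24 YAP and TEAD genes, LATS2 alone had a peak, of 15 tags. Of 28 ETS factors, 3 had peaks, namely ELK3 with 26 tags at its start, SPI1, the myeloid factor PU.1, with 21, and ELK1 with 12. No peak was found at the ends of 27 KLF and SP factors, a count whose interval reaches 12.5%. Single peaks stood at FOXM1 with 18 tags among 52 FOX genes, at SOX12 with 14 among 20 SOX genes and at HOXA5 with 15 among 39 HOX genes. The ZNF genes, with 17 of 517 or 3.29% (2.06 to 5.20), were one of the 2 families below the share of all genes. Their tallest peaks were those of ZNF341 with 26 tags, ZNF546 with 24, ZNF436 with 23 and ZNF627 with 22.

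Of 26 integrins, 4 had peaks, or 15.4% (6.15 to 33.5). After ITGB2, ITGA10 had 19 tags at 2.92 times the background, ITGA6, the laminin receptor chain of hemidesmosomes, had 16 tags 50 bp from its start, and ITGB3 had 15. Of 12 laminin genes, LAMB2 had 36 tags 699 bp upstream of its start, and LAMB3, a chain of the epithelial laminin that ITGA6 binds, had 21 tags at 2.50 times background. Of 55 keratins, 3 had peaks, at KRT77 with 25 tags and at KRT85 and KRT79 with 17 each. Of 44 collagens, COL23A1 had 43 tags and COL21A1 had 19.

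Of 20 S100 genes, small calcium-binding proteins that form a cluster on chromosome 1, 4 had peaks, or 20.0% (8.07 to 41.6). All 4 stood at starts, with 39 tags at S100A12, 22 at S100A2, 17 at S100A10 and 15 at S100A11. At these 4 peaks the local level stood between 1.51 and 1.67 times that of the genome, and the part of that level in their count was not tested. Of 89 cadherin and protocadherin genes, 25 were reached, or 28.1%, but by only 6 peaks. A single peak of 20 tags near the shared other end of the gamma protocadherin cluster counted for 22 genes, PCDHGA1 to PCDHGA12 among them. PCDH1 had the tallest peak of this family with 34 tags, and PCDHAC1 had one of 28.

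Housekeeping families lay near the share of all genes. Of 88 cytosolic ribosomal protein genes, 5 had peaks, the tallest at RPS9 with 29 tags. Of 78 mitochondrial ribosomal protein genes, 7 had peaks, or 8.97% (4.42 to 17.4), led by MRPS24 with 25 tags. Among 56 translation initiation factors there were 4, led by EIF5A2 with 29 tags. The splicing proteins had SRSF5 with 26 tags and SF3B3 with 19, of 58.

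Of 50 proteasome subunits, PSMB3 alone had a peak, of 13 tags. Of 84 subunits of oxidative phosphorylation, UQCRC1 had 25 tags and NDUFS7 had 18. Of 76 heat shock and DNAJ genes, 7 had peaks, with DNAJB12 at 32 tags, HSPA4L at 20, HSPB6 at 17 and HSPA6 at 16. Of 95 histone genes, 7 were reached by 6 peaks, led by H2AZ2 with 22 tags. H4C14 with 18 tags and H4C15 with 17 are near-identical copies and therefore uncertain, and H2AC11 and H2BC11 shared 1 peak of 15 tags, 16 bp inside the start of H2AC11.

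Of 396 solute carriers, 23 had peaks, or 5.81% (3.90 to 8.56), the tallest at SLC52A2 with 42 tags, SLC23A1 with 30, SLC4A2 with 29 and SLC9B1 with 27. Of 392 olfactory receptors, 2 had peaks, or 0.510% (0.140 to 1.84), at OR52N4 with 30 tags and at OR1F1 with 14. This family was the other one below the share of all genes. Serpins had none among 34, a count whose interval reaches 10.2%.

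Genes of growth and signalling gave small counts. Of 54 cyclins and CDKs, CDK5 had 29 tags, CCNI had 26, and CDK13 and CCND3 had 14 each. Of 30 DUSP and SPRY genes, a list that includes brakes on MAP kinase signalling, DUSP19 had 29 tags, DUSP28 had 24 and DUSP1 had 19. Of 34 genes of the TNF superfamily, TNFRSF8 had 21 tags and TNFRSF4 had 13. The list of 90 interleukins and chemokines had 4 genes with peaks, IL6R with 33 and 28 tags, which is a receptor caught by the name pattern, IL16 with 25, IL26 with 19 and IL23A with 18.

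Tubulins and actins had 3 of 29 genes with peaks, at TUBG1 with 28 tags, TUBA1A with 23 and TUBG2 with 15. RAB GTPases had 4 of 63, at RAB11A and RAB3D with 18 tags each, RAB14 with 15 and RAB27B with 14. RNF and TRIM ubiquitin ligases had 10 of 162, among them RNF39 with 23 tags, RNF139 with 22 and TRIM55 with 21.

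**Figure D5:**
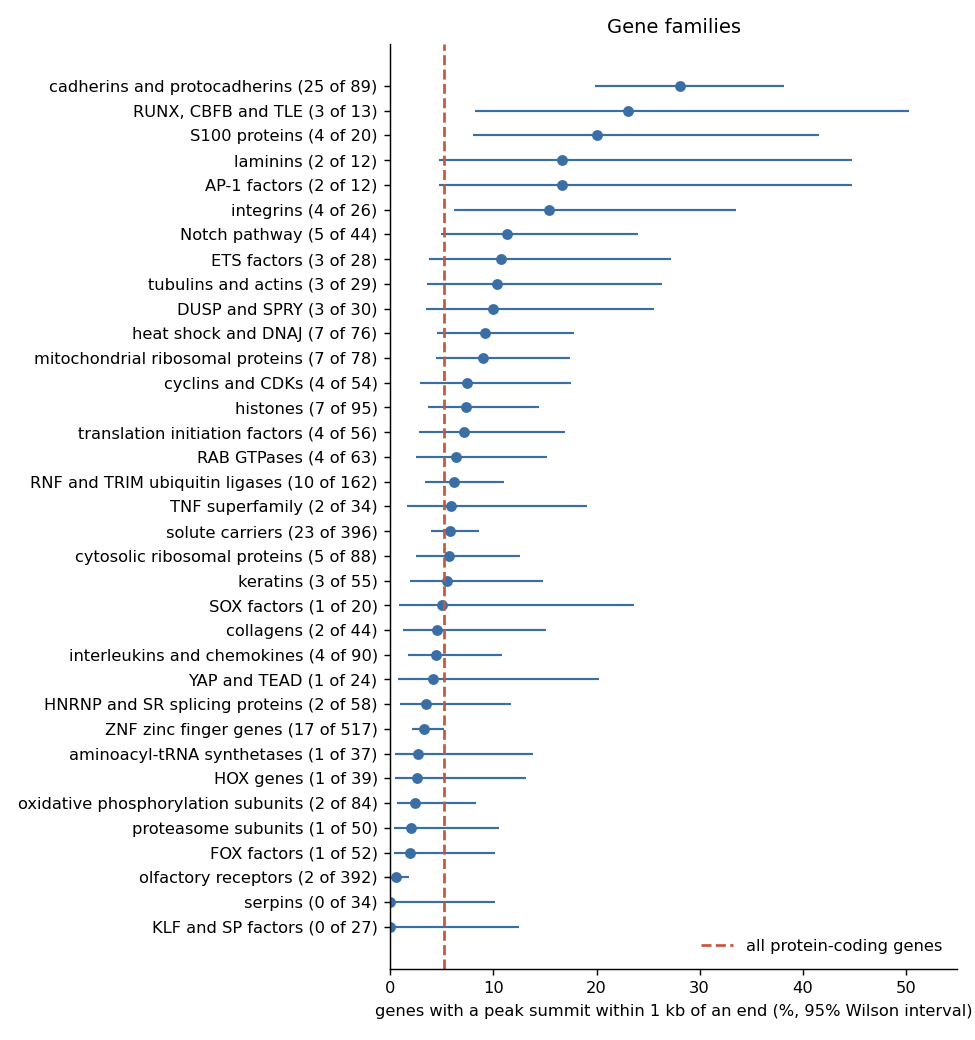
Share of each family's genes with a peak summit within 1 kb of an end (points, in %), with 95% Wilson intervals (lines) and the counts beside each name. The dashed line marks the 5.22% of all protein-coding genes, which lies inside the interval of 29 of the 35 families. The 28.1% of the cadherins and protocadherins comes from 6 peaks.

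Some of the peaks counted for protein-coding genes stood on small RNA genes. The summit lay in or within 100 bp of a tRNA gene at 28 of the 996 peaks, or 2.81% (1.95 to 4.03), against 96 of the other 12595, or 0.762% (0.625 to 0.930). Their pileups ran from 12 to 24 tags with a median of 16. The peaks of HES7, RAB11A, PSMB3, NDUFS7, TRIM55, TRIM41, SLC27A4 and HSPA6 given or counted above were among them, as were those of POLR3E, a subunit of RNA polymerase III, and the mitochondrial polymerase gene POLG. For HES7, RAB11A, TRIM55, TRIM41, SLC27A4, HSPA6 and POLG the summit lay in the tRNA gene itself. The part of the tRNA genes in these peaks was not tested, and the share of all protein-coding gene ends near a tRNA gene was not computed. Of all 443 tRNA genes, 124 had a summit within this distance, or 28.0% (24.0 to 32.3). A further pair of gene-end peaks stood at small nuclear RNA genes, RNU2-2 by WDR74 and RNU4-2 by SIRT4. The genes of this paragraph were named after their values were seen.

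Chromosomes differed in their share of genes reached. It ran from 4.07% on chromosome 18 to 6.74% (5.74 to 7.91) on chromosome 1, apart from chromosomes 5, 21, X and Y. It was 7.86% (6.28 to 9.80) on chromosome 5, and 5.56% (4.23 to 7.28) there without the 22 gamma protocadherins that share 1 peak. It was 2.93% (1.43 to 5.92) on chromosome 21 and 1.30% (0.726 to 2.31) on the X chromosome. On chromosome 19, 57 of 322 peaks stood at gene ends, or 17.7%, the largest share of any chromosome, while its 4.76% of genes reached lay near the share of all genes.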

How the data were processed

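RUNX1 ChIPseq was carried out in 1 RUNX1 ChIP and 1 input library of MCF10A cells. Per the submitters' processing notes, reads were aligned with Bowtie2 to hg38. Per the file headers, the authors called peaks with MACS 2.1.2 on ChIP against input at a q limit of 0.05. They kept 1 tag per position and strand, used tags of 54 bp and extended them to 74 bp. The deposited pileup is a signal in tags at the summit, and q-values were deposited as −log10 values. The deposited fold is the ratio of pileup to local background, with 1 added to each. The local level was computed here from pileup and fold.

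Gene ends came from the RefSeq gene table for GRCh38, and directions from the RefSeq promoter table (GRCh38.p14), which held 15842 of 20033 protein-coding genes (79.1%). No genome sequence was used. Calculations used Python 3.11.15, pandas 2.3.3, numpy 2.4.6, scipy 1.17.1 and matplotlib 3.10.9. The assignment was tested on simulated data, in which all 400 summits were assigned as placed.

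Shares carry 95% Wilson intervals and pileups exact 95% Poisson intervals. With 1 library of each kind no test was made. Genes were named at the 25 tallest peaks, the 15 tallest pair peaks, the 10 genes with most peaks, the 5 longest peaks and the 3 peaks on either side of the limit. All members with a peak were named in the RUNX, Notch, AP-1 and TEAD families, and up to 4 in the others, of which 3 genes are not reported here. The members and lists were chosen with earlier results of these data known. Alternatives covered the window, the q and fold limits, chromosomes, merging, overlap, the local level and the motif form.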

Additional observations from a re-analysis of the deposited data

How the results depend on the processing

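Of 64 alternatives to 12 results, 39 left a count within 1.5 times its value, or a share or median within its 95% interval, and 25 did not. Leaving out chromosome Y removed 1 peak of the list and no gene-end peak, so alternatives of that kind were bound to be among the 39. Narrowing the window to 500 bp left 643 peaks (4.73% of the list), 661 genes and 46 pair peaks, with 84.8% of peaks nearest a start. Widening it to 2 kb gave 1507 peaks (11.1%) and 215 pair peaks, with 73.5% nearest a start. A fold enrichment of at least 5 left 478 peaks, 512 genes and 51 pair peaks, with medians of 6.25 in fold, higher by construction, 21 tags in pileup and 196 bp in length. Peaks with the local level at the genome background were 493 (8.31% of such peaks), at 527 genes with 55 pair peaks, a median fold of 5.31 and a median pileup of 16 tags, and the cause was not tested. The RUNX letters were in 32.1% of windows as TGTGGT alone and in 37.5% in the longer form. Counted by peak, the cadherin family fell from 25 to 6. Leaving out the gamma protocadherins took the share of chromosome 5 genes from 7.86% to 5.56%. These counts, the RUNX family without RUNX1 and the removal of peaks at tRNA genes were added after seeing the data. No paired analysis was possible because each kind of library was made once.

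With 1 ChIP and 1 input library, the spread between cultures is unknown. A summit of 17 tags, the median, has a 95% Poisson interval of 9.90 to 27.2, so gene ends with fewer tags could miss the list by counting error alone. Absence from the list is not absence of RUNX1. Induced RUNX1 stood in for the deleted gene, and no library without RUNX1 was analysed here. Peaks at genes with near-identical copies depend on how reads with several matches were placed, which is not given in the sources used here.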

Other observations

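Ends of long non-coding RNA genes also lay within 1 kb of the summit at 155 of the 996 peaks, or 15.6% (13.4 to 17.9), against 4.66% (4.31 to 5.04) of the peaks at no end of a protein-coding gene. Ends of microRNA genes did so at 10 of the 996, or 1.00% (0.546 to 1.84), against 0.246% (0.173 to 0.349), and ends of pseudogenes at 8, or 0.803% (0.408 to 1.58), against 1.36% (1.17 to 1.58). The share of all protein-coding gene ends with such an end nearby was not computed. These differences therefore cannot be told apart from the way genes lie along the genome.

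The protein-coding genes reached had a median length of 29.3 kb, with quartiles of 10.2 and 75.8 kb, and the other protein-coding genes one of 23.9 kb, with quartiles of 8.44 and 64.6 kb. Among genes without an official name, listed with LOC symbols, 23 of 659 were reached.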
